A study of Mus musculus with 16 samples.

Results

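H3K36me3 was profiled by chromatin immunoprecipitation and sequencing in mouse hematopoietic stem cells of 2 ages, 3 libraries at 24 months and 3 at 4 months. These 6 libraries were chosen by the mark and the age in their titles, out of 16 in the series; the others carry H3K4me3 (4 libraries) or H3K27me3 (6 libraries). Both groups were primary cells of C57BL/6 bone marrow with no genetic change or treatment named, sorted as SP-KSL-CD150+ (dye-effluxing side population, Kit+, Sca-1+, lineage-negative, CD150+) and precipitated with the antibody Abcam ab9050. Libraries are called old (24 months) and young (4 months) with the replicate number of the labels, which runs from 4 to 6 at each age. In the labels each library is a technical replicate that belongs to a biological replicate with a number. Animals are not named, so the spread that p-values measure may be partly technical. Titles also carry a number with no explanation: 16 for young 4 and old 4, 17 for old 5, 18 for young 5 and old 6, and 20 for young 6.

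H3K36me3 is the trimethyl mark that SETD2 places on lysine 36 of histone H3 while it travels with elongating RNA polymerase II. It therefore lies over the bodies of transcribed genes, beyond the promoter, where H3K4me3 lies, and it recruits factors that keep transcription from starting inside genes. Regions under the Polycomb mark H3K27me3 usually lack it. A peak caller tends to break such broad domains into many short peaks, so neighbouring peaks were joined into blocks here. No gene annotation of the files' build was at hand, so blocks carry coordinates of mm9 and no gene names, and no sequence is printed.

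The lists differed far more between libraries than between ages. On the 19 autosomes, the young lists held 6348 peaks (young 4), 83905 (young 5) and 77298 (young 6), and the old lists 39151 (old 4), 50186 (old 5) and 64140 (old 6). The young lists covered 5.85, 41.3 and 136 Mb, in the same order, and the old lists 68.3, 99.6 and 99.9 Mb. Young 4 stood apart from every other library, and young 5 and young 6 lay on opposite sides of all 3 old libraries in covered length. Median peak widths were 794, 355 and 1206 bp in the young lists and 1318, 1441 and 1045 bp in the old ones. Young 5 thus held the most peaks of the 6 lists and the narrowest ones. With all 6 libraries neither the number of peaks (p = 1), the covered length (p = 0.4) nor the median width (p = 0.2) differed beyond the spread by an exact two-sided permutation test, for which 0.1 is the smallest p possible with 3 or 2 young libraries. Without young 4, each old list was shorter than both young ones (51159 ± 12523 peaks, SD, n = 3, against 80602 ± 4672, SD, n = 2; exact permutation p = 0.2). Widths and covered length overlapped without it.

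Peaks of each library were first joined across gaps of at most 3 kb. This gave 5662 blocks in young 4, 25073 in young 5 and 25777 in young 6, and 20318 in old 4, 22743 in old 5 and 22762 in old 6. Without young 4, every old library had fewer blocks than either young one, by 0.21 on the log2 scale (log2 ratio −0.21; exact permutation p = 0.1, the smallest possible). The same order held at 1 kb (log2 ratio −0.38, exact permutation p = 0.2) and at 5 kb (−0.15, exact permutation p = 0.1). It did not hold when the 39151 highest scoring peaks were taken from each list other than young 4. The log2 ratio of block numbers was then 0.09, with overlapping libraries (exact permutation p = 0.3). With young 4 included the log2 ratio was 0.51 and the ages overlapped (exact permutation p = 1).

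**Figure D1:**
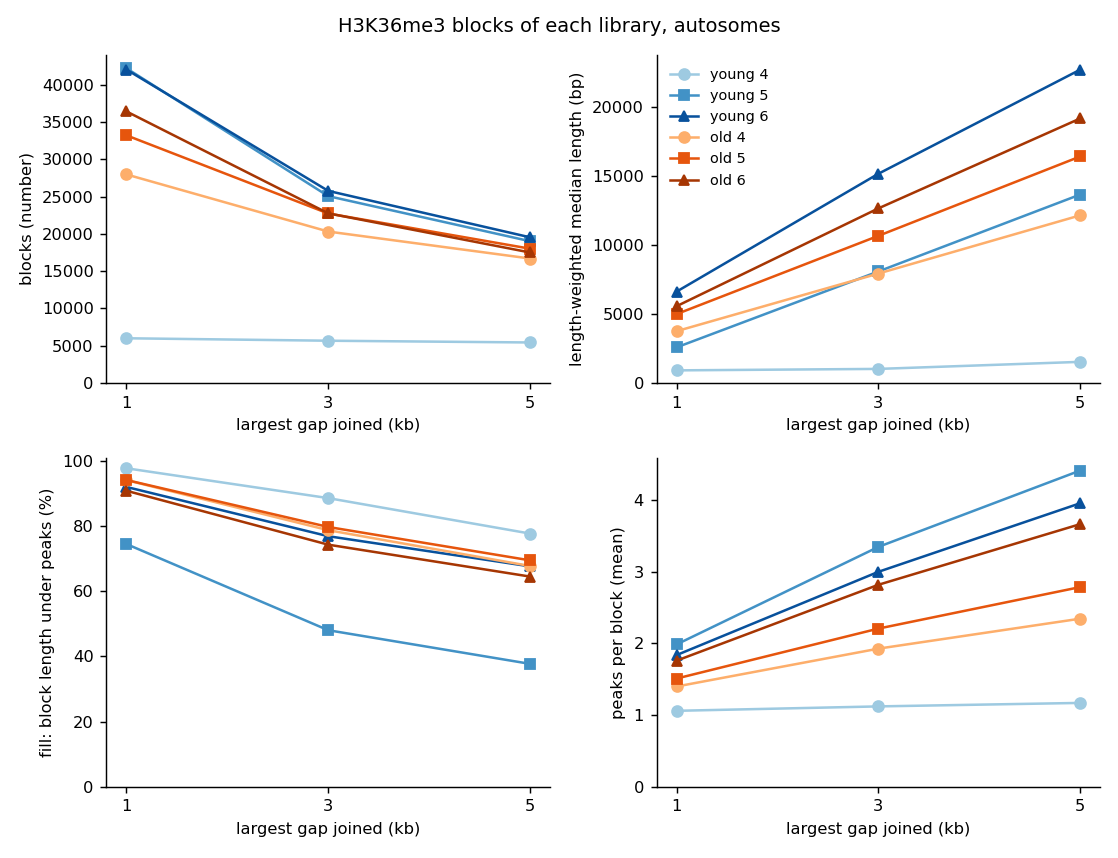
Number of blocks, length-weighted median length, fill and peaks per block (vertical axes, linear from 0) against the largest gap across which peaks were joined (1, 3 or 5 kb). Each line is 1 library, young in blue and old in orange; at 3 kb the fill of young 5 was 48.0% while the other 5 libraries lay between 74.3% and 88.6%.

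Block length did not separate the ages at any gap. At 3 kb the median block was 800, 1452 and 3298 bp long in young 4, 5 and 6 and 2202, 2866 and 2883 bp in old 4, 5 and 6. The length-weighted median, the length at which blocks that long or longer hold 50% of the block span, was 1014, 8083 and 15168 bp in the young libraries and 7930, 10666 and 12656 bp in the old ones. All 3 old medians lay between young 5 and young 6. In the weighted median old 4 lay just under young 5. Without young 4 the log2 ratio of old to young weighted medians was −0.11 (exact permutation p = 0.8) at 3 kb, 0.19 (exact permutation p = 0.8) at 1 kb and −0.17 (exact permutation p = 0.8) at 5 kb. Blocks of at least 20 kb numbered 1, 430 and 2112 in the young libraries and 429, 1002 and 1325 in the old ones, again overlapping (exact permutation p = 0.6 without young 4). The longest block of any library at 3 kb measured 120141 bp, in young 6.

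Fill, the share of a block's length that lies under peaks, set young 5 apart from all other libraries. At 3 kb it was 88.6% in young 4, 48.0% in young 5 and 76.9% in young 6, against 78.7%, 79.7% and 74.3% in old 4, 5 and 6. The 3 old libraries and young 6 lay within a few points of each other. The high fill of young 4 went with 1.12 peaks per block, since most of its blocks were single peaks, whereas the low fill of young 5 went with 3.35 peaks per block. Without young 4 the old mean was 77.6% ± 2.9 (SD, n = 3) and the young mean 62.4% ± 20.4 (SD, n = 2), a difference of 15.1 points with overlapping libraries (exact permutation p = 0.2). At 1 kb the difference was 9.78 points and at 5 kb 14.6 points (exact permutation p = 0.2 for each), and with all 6 libraries it was 6.41 points at 3 kb (exact permutation p = 0.8). The pair of libraries with title number 18 differed by 26.2 points (old 6 above young 5), and the pair with title number 16 by −9.84 points (old 4 below young 4).

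Old blocks were made of fewer peaks than those of young 5 and young 6. Old 4, 5 and 6 held 1.93, 2.21 and 2.82 peaks per block, against 3.35 and 3.00 in young 5 and 6 (log2 ratio −0.47 without young 4, exact permutation p = 0.2). Young 4 held 1.12, fewer than any old library, and with all 6 libraries the log2 ratio was 0.03 and the ages overlapped. Blocks of several peaks held 72.1%, 78.2% and 86.1% of the covered length in the old libraries, against 89.8% and 88.5% in young 5 and 6 and 24.4% in young 4. Median gaps between neighbouring peaks ran the same way, at 3298.5, 2338 and 1395 bp in the old lists and 1016.5 and 1241 bp in young 5 and 6. At the equal number of peaks the peaks per block overlapped between ages (log2 ratio −0.09 without young 4, exact permutation p = 0.3), so the length of the list moved with this difference; its part in it was not tested beyond that.

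One common set of blocks was then used to compare the libraries at the same places. Autosomal bases under peaks of at least 2 of the 6 libraries were joined across gaps of at most 3 kb, and the 11996 blocks of at least 3 kb were kept. They spanned 140 Mb with a median length of 8173 bp, and 1755 of them were at least 20 kb long. A peak was present in 14.3%, 94.5% and 99.7% of the blocks in young 4, 5 and 6 and in 87.7%, 97.1% and 98.2% in old 4, 5 and 6. The 5 libraries other than young 4 shared 9768 blocks (81.4%), and all 6 shared 1592 (13.3%). Counted by any base under a peak, most blocks were thus shared by the 5 libraries other than young 4. Where 10% of a block had to be covered, these 5 shared 70.0% of the blocks and all 6 shared 5.20%. A peak in all 3 old libraries and in no young one was found in 14 blocks, and 0 had the reverse. Young 6 had a peak in 99.7% of the blocks and young 4 in 14.3%, so few blocks could enter either count. Without young 4 these counts were 15 and 6. The blocks held at 24 months only numbered 28 of 11996 without young 5 and 378 of 11996 without young 6. They numbered 76 of 10272 when each list but young 4 was cut to 39151 peaks. Young 4 kept its 6348 peaks there, so the lists were not equal in that count.

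Within the common blocks the fill of the old libraries fell between those of young 5 and young 6. Peaks covered 1.99%, 26.3% and 74.8% of the span of all blocks in young 4, 5 and 6, and 42.8%, 61.0% and 61.9% in old 4, 5 and 6. All 3 old libraries lay between young 5 and young 6 in 5324 of the blocks (44.4%). Young 6 had more fill than young 5 in 99.3% of the blocks and the most of all 6 libraries in 62.0%. Blocks covered to at least 90% numbered 0, 8 and 2646 in the young libraries and 424, 1233 and 1276 in the old ones. In young 5 the covered bases were split into 5.18 peaks per 10 kb of block, against 3.67 in young 6 and 2.32, 2.84 and 3.65 in the old libraries.

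**Figure D2:**
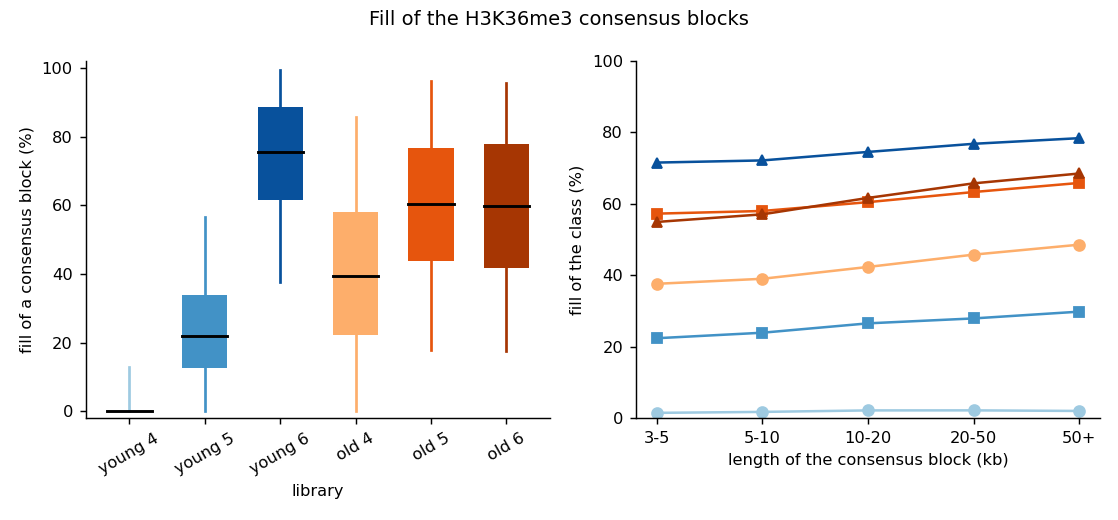
Left, fill of the 11996 common blocks in each library (line: median, box: 25th to 75th percentile, whisker: 5th to 95th percentile). Right, fill by length class of the block (same colours and the marker shapes of the plot of blocks against gap); the order of the libraries, young 6 highest and young 4 lowest, is the same in each class except that old 5 and old 6 change places.

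Longer blocks were filled more in 5 of the 6 libraries. From blocks of 3 to 5 kb to those over 50 kb, fill rose from 22.4% to 29.8% in young 5, from 71.6% to 78.4% in young 6, from 37.6% to 48.6% in old 4, from 57.3% to 65.9% in old 5 and from 54.9% to 68.5% in old 6. In young 4 it was 1.46% and 1.99%, with the highest value in between. Longer blocks also ranked higher by score: the median score percentile went from 34.9 to 68.1 in young 6 and from 33.6 to 72.5 in old 6.

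No block passed the test for a change of fill with age when all 6 libraries, or the 5 without young 4, were compared by age alone. Fill was compared in limma with Benjamini-Hochberg adjustment over all blocks, and 0 of 11996 (0%) had an adjusted p under 0.05 with all 6 libraries (51 at an unadjusted p under 0.05) and 0 (0%) without young 4 (34 unadjusted). The median difference was 20.2 points with young 4 and 4.54 points without it, beside a median standard error of 28.7 and 28.1 points. Every old library lay above every young one in 381 blocks (3.18%) and below in 2 (0.0167%). Without young 4 these counts were 386 (3.22%) and 38 (0.317%). With each library centred on its mean fill they were 1014 (8.45%) and 785 (6.54%) with all 6 libraries, and 1367 (11.4%) and 980 (8.17%) without young 4. Centring raised both counts and made them more alike in proportion. Beside this spread within an age, the 0 calls do not show that fill was alike at both ages. The count depended on which libraries entered: without young 6, 3149 of 11958 blocks (26.3%) passed, all with more fill in the old libraries, because the libraries that remain at 4 months are the 2 of lowest fill. A fit with the title number as a block, which holds only the pairs of numbers 16 and 18 and so leaves out young 6 too, passed 7925 of 11755 blocks, 7924 of them with more fill in the old libraries.

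The extent of a library within a block, from its first to its last peak base, gave the same outcome. Over the 1592 blocks held by all 6 libraries 0 (0%) passed in limma (10 at an unadjusted p under 0.05), and over the 9768 held by the 5 other libraries 0 (0%) passed (148 unadjusted). The median log2 ratio of extent was 0.97 with young 4 and −0.01 without it. Without young 4, all old libraries extended farther than both young ones in 439 blocks (4.49%) and less far in 729 (7.46%). With all 6 libraries these counts were 85 (5.34%) and 3 (0.188%). With each library centred on its median, the blocks with farther extent became the larger set without young 4, at 907 (9.29%) against 396 (4.05%), and with all 6 libraries the counts were 51 (3.2%) and 47 (2.95%).

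Scores of blocks were compared by rank, since the unit is not given in the sources used here; raw scores appear below for wide peaks and 1 block, as deposited, and may not be on one scale in every list. For each library the blocks held by all libraries compared were ranked by the mean score of their peaks, weighted by length, and placed on a percentile scale. In limma 0 of 9768 blocks (0%) passed without young 4 (551 at an unadjusted p under 0.05), and 0 of 1592 (0%) with it (67 unadjusted). Without young 4, all 3 old percentiles lay above both young ones in 1266 blocks (13%) and below both in 945 (9.67%). With all 6 libraries these counts were 99 (6.22%) and 84 (5.28%) of the 1592. Each of the 5 libraries has 977 blocks in its top 10%. Of the 9768 ranked blocks, 250 (2.56%) were in the top 10% of all 5. In the top 10% of every old and no young library were 32 of the 9768. In that of both young and no old library were 56 of the 9768. These rules ask for unlike numbers of libraries, so their counts cannot be set against each other.

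Libraries did not pair off by age in rank order. Over the 9768 blocks, Spearman's rho of block scores was 0.73 between young 6 and old 6, 0.66 between young 5 and young 6, 0.65 between young 5 and old 6, and 0.67 between old 4 and old 5. Old 4 was less like young 5 (0.47), young 6 (0.48) and old 6 (0.49). The share of bases common to 2 libraries among all bases under either was 0.25 for young 5 and young 6, 0.38 to 0.51 for young 6 with the old libraries, and 0.42 to 0.51 among the old libraries. These are descriptions over the same blocks and rest partly on list length.

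Position relative to promoters was read from H3K4me3, taking the 14016 regions present in all 4 H3K4me3 libraries. The nearer end of a common block lay a median of 12508.5 bp from such a region, and 470 blocks (3.92%) contained one. Of the 4904 blocks of at least 10 kb, 1616 (33.0%) had H3K4me3 within 5 kb of one end only, 412 (8.40%) at both ends and 2876 (58.6%) at neither. Along the 1616 blocks with one such end, the mark was spread almost evenly in every library but young 4. The 20% of block length next to H3K4me3 held 12.3%, 17.9% and 19.8% of the covered length in young 4, 5 and 6 and 17.9%, 19.2% and 19.2% in old 4, 5 and 6. The farthest 20% held 17.8%, 18.996% and 19.8% in the young and 18.7%, 19.7% and 19.6% in the old libraries. Without young 4 the ages differed by −0.14 points in the nearest 20% and −0.10 points in the farthest (exact permutation p = 0.9 for each).

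**Figure D3:**
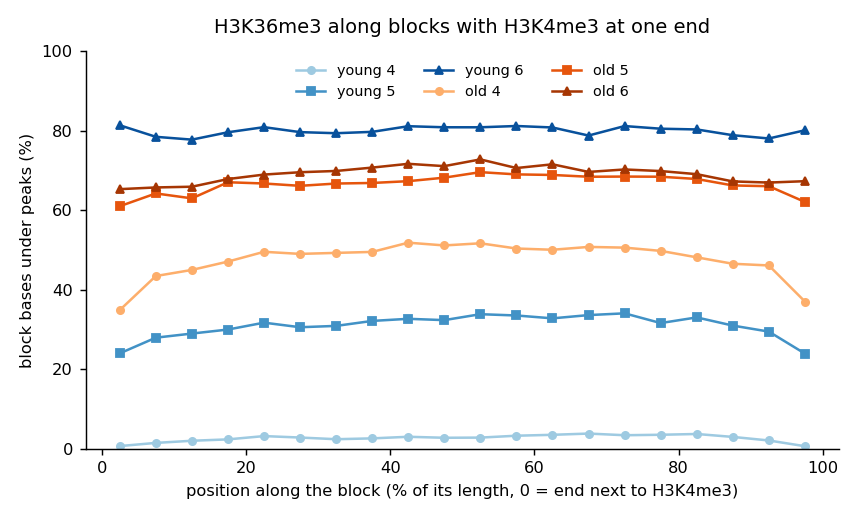
Share of block bases under peaks (vertical axis) along 1616 blocks of at least 10 kb with H3K4me3 at one end, cut into 20 equal bins from that end (horizontal axis, percent of block length). Each line is 1 library. The profiles differ in height and, young 4 apart, are near flat, with a dip in the outermost bins of young 5 and old 4. Young 4 fell most, to 0.26 of its mean in the bin next to H3K4me3 and 0.24 in the farthest bin.

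The score of blocks near H3K4me3 separated libraries, but not by age. This comparison was added after the data were seen. Blocks within 2 kb of H3K4me3 exceeded blocks over 50 kb away by 16.7 percentile points in young 5 and 22.7 in young 6, and by 27.02 in old 6, 9.002 in old 5 and −2.53 in old 4. Old 4 thus ranked distant blocks no lower than promoter-proximal ones, while old 6 had the steepest decline of the 5. The difference between ages was −8.56 points (exact permutation p = 0.5), −1.72 without old 4 and −16.5 without old 6. The value was lowest for title number 16, next for 17, and higher for 18 and 20. Each number but 18 had 1 ranked library here. The values of 18 (16.7 and 27.02) lay on both sides of that of 20 (22.7). Title number and age can be compared directly only in 18, where old 6 exceeded young 5. Young 4 was too sparse to be ranked here, and 48.9% of its covered length lay over 50 kb from H3K4me3, against 17.4% to 22.5% in the other 5.

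**Figure D4:**
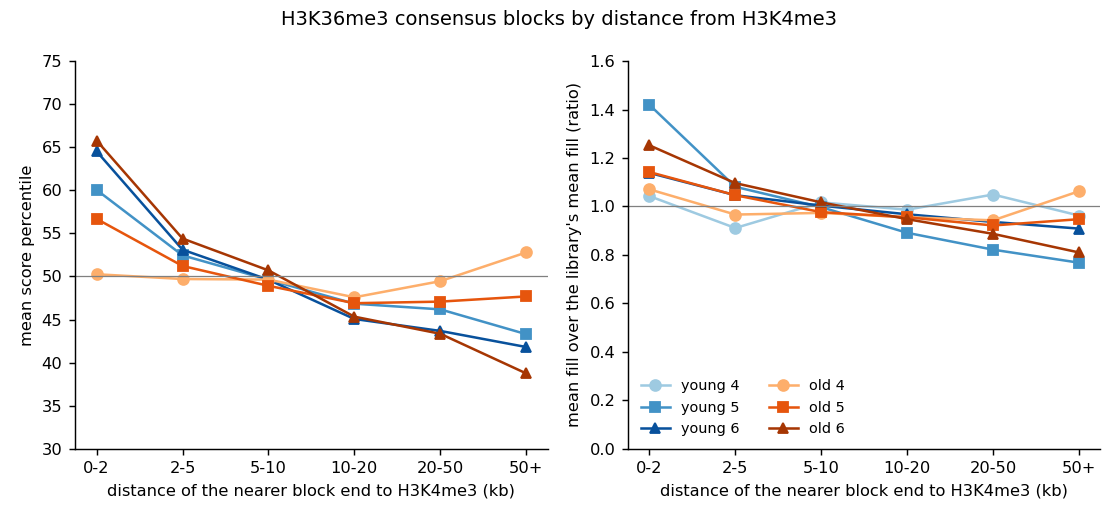
Mean score percentile of the common blocks held by 5 libraries (left; the axis runs from 30 to 75) and mean fill divided by the library's mean fill (right) in classes of distance between the nearer block end and H3K4me3. Each line is 1 library; old 4 is flat on the left, from 50.3 at 0 to 2 kb to 52.8 beyond 50 kb, while old 6 goes from 65.8 to 38.8.

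The blocks whose score rank lay lower in all old libraries sat closer to H3K4me3 than the others. The 945 such blocks had a median distance of 6546 bp and 30.7% of them lay within 2 kb, whereas the 1266 blocks with higher ranks in all old libraries had a median distance of 15242 bp and 16.8% within 2 kb. The 7557 remaining blocks had a median of 12080 bp. With old 4 left out the medians were 10512, 11541 and 12201 bp, a smaller gap. More blocks then met the rule, 1472 with lower and 1772 with higher ranks. Leaving out old 5 or old 6 was not examined, so the part of old 4 in the gap was not tested.

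Wide peaks of low score occurred mainly in the old lists. Peak width and score rose together in every list (Spearman's rho 0.73 to 0.91 across peaks). Of peaks of at least 3 kb, the share with a score under 150 was 0% in young 4 (of 72 peaks), 0% in young 5 (of 247) and 0.030% in young 6 (3 of 10069), against 1.62% in old 4 (70 of 4331), 2.24% in old 5 (176 of 7849) and 0.090% in old 6 (6 of 6658). Every old list lay above every young one (exact permutation p = 0.1, the smallest possible), on a rule chosen after the data were seen. Young 4 and young 5 had few peaks this wide, so their 0% says little. In young 5, a list of narrow peaks, the lowest score of such a peak was 919.86. Old 6, with 6 such peaks, was close to young 6. Counting scores under 200, or widths of at least 2 kb, brought young 4 above old 6. Of the 176 peaks of old 5, 174 touched a peak of young 6, much as 99.7% of all peaks of at least 3 kb in old 5 did. In the old lists 4 of the 176 peaks of old 5 touched such a peak of old 4, which had 70, and 2 of the 6 of old 6 touched one of old 5.

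The other marks hardly touched H3K36me3. H3K27me3 islands were taken where at least 3 of 5 libraries shared them; young replicate 1 of that mark was left out, a choice made with earlier results of these data known. They lay under 0.579%, 0.153% and 0.123% of the covered length in young 4, 5 and 6 and 0.209%, 0.195% and 0.125% in old 4, 5 and 6. These values overlapped between ages (exact permutation p = 0.9, and 0.3 without young 4), also where all 6 H3K27me3 libraries were used. H3K4me3 regions lay under 0.453% and 0.530% in young 5 and 6, 0.228% in young 4, and 0.254%, 0.368% and 0.428% in the old libraries. Without young 4 each old library was below both young ones by this measure, with a difference of −0.14 points (exact permutation p = 0.2), also at the equal number of peaks. With young 4 they overlapped (exact permutation p = 0.7). Only 77 common blocks (0.642%) contained any H3K27me3, and the nearer end of a block lay a median of 98369.5 bp from it.

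The share of covered length on each chromosome gave no call. Chromosome 17 held 4.70%, 4.92% and 4.98% in old 4, 5 and 6, and 5.54%, 5.40% and 5.02% in young 4, 5 and 6, so every old library was lower. The exact permutation p was 0.1, the smallest possible, and 1.0 after Benjamini-Hochberg adjustment over 19 autosomes (0.713 without young 4). Chromosome 16 separated the ages only without young 4, with 4.09%, 3.85% and 3.82% in the old libraries and 3.65% and 3.82% in young 5 and 6, where old 6 exceeded young 6 only beyond the digits shown.

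The 10 longest common blocks with a peak in the 5 libraries had least fill in young 4, then young 5 and old 4, as in the whole set, while the order of old 5, old 6 and young 6 varied. The longest lies at chr1:157692980-157806177 (113198 bp) and was covered to 4.47%, 25.01% and 71.1% in young 4, 5 and 6 and 50.1%, 63.9% and 56.3% in old 4, 5 and 6. Its score percentiles were 80.7 and 78.3 in young 5 and 6, below all 3 old values of 89.4, 89.7 and 82.4. The second, chr5:102262967-102372875 (109909 bp), had percentiles of 85.8 and 82.4 in the young and 85.6, 87.2 and 85.3 in the old libraries, an overlap. The third, chr5:121728366-121832298 (103933 bp), contains an H3K4me3 region and varied more within an age than between ages, with 50.2 and 70.9 in young 5 and 6 and 45.0, 68.8 and 83.1 in old 4, 5 and 6. The best filled of the 10 was chr4:138945069-139046995 (101927 bp), at 57.1% and 98.0% in young 5 and 6 and 85.5%, 95.3% and 96.9% in the old libraries. Its 93 peaks in young 5 stood against 15 in young 6 and 25, 16 and 13 in the old libraries over much the same span.

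Among 4753 blocks of at least 10 kb held by the 5 libraries, 646 had higher and 403 had lower score percentiles in all 3 old libraries than in young 5 and 6. Over all 9768 ranked blocks of any length these counts were 1266 (13%) and 945 (9.67%). Since the following blocks were picked for that difference, their values are descriptions and carry no test. The largest rise was at chr5:37785826-37809539, a block of 23714 bp far from H3K4me3 (55345 bp at the nearer end). Its percentiles were 19.5 and 24.2 in young 5 and 6 and 92.9, 82.4 and 80.4 in old 4, 5 and 6, and its fill was 6.8% and 46.8% against 28.3%, 51.5% and 42.3%. The ranks were thus apart while the fills overlapped. At chr1:166054559-166080160 (25602 bp) both measures were higher in the old libraries: fill was 13.4% and 58.9% in young 5 and 6 and 78.2%, 70.4% and 87.1% in old 4, 5 and 6, and percentiles were 51.6 and 12.3 against 91.8, 86.5 and 94.3. A block of 12872 bp on chromosome 18 was likewise among the 5 largest rises by both measures, with fills of 13.6% and 51.3% against 80.9%, 73.5% and 74.0%. The other rises by score were chr4:98237287-98248819, where old 6 (45.3) lay far below old 4 (93.5) and old 5 (91.9), and chr6:47464412-47477617. Young 4 had no peak in any of these 5 blocks.

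The largest fall of score rank was at chr2:25286494-25304562, a block of 18069 bp that begins 994 bp from H3K4me3. Its percentiles were 92.7 and 93.1 in young 5 and 6 and 3.96, 3.73 and 0.77 in old 4, 5 and 6. The mark itself covered the block at both ages: fill was 72.0% and 97.4% in young 5 and 6, and 37.6%, 95.1% and 100% in old 4, 5 and 6. In old 5 a single peak of 17184 bp scored 124.84, and in old 6 a single peak of 18094 bp scored 91.82, whereas the widest peak of young 6 there, of 16414 bp, lay in a pair whose higher score was 2416. Between young 6 and both old 5 and old 6, the rank fell over peaks of similar extent. Old 4 had 2 shorter peaks there, the wider of 3612 bp, and young 5 had 13, the widest of 2727 bp. The other 4 falls (chr5:125494292-125536171, chr12:113968909-113979195, chr3:88705500-88716521 and chr9:21808648-21819459) were low in both old 4, with percentiles of 21.7, 0.32, 1.48 and 0.54, and old 5, with 10.6, 25.05, 20.5 and 18.2. Old 6 had 75.4, 61.9, 64.1 and 74.2 there, nearer to the young libraries, which lay between 84.6 and 96.4. Old 6 also filled 94.2%, 92.6%, 80.2% and 91.5% of these blocks, where old 4 filled 26.7%, 38.2%, 18.7% and 25.2%.

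By fill, 62 of the 4753 blocks were higher and 1 lower in all 3 old libraries than in young 5 and 6. Over all 11996 common blocks these counts were 386 (3.22%) and 38 (0.317%). The largest rise was at chr10:107818709-107833064 (14356 bp), with 9.8% and 23.8% in young 5 and 6 and 71.6%, 73.2% and 41.3% in old 4, 5 and 6. The second, chr8:46114174-46130151 (15978 bp), had 16.2% and 47.2% against 78.1%, 78.2% and 71.8%, and 4200 bp of it lay under H3K27me3. At chr16:17415569-17429496 (13928 bp) both young libraries were nearly bare, with 8.2% and 11.8% against 46.7%, 53.7% and 59.1%. The single block with less fill in the old libraries, chr19:5947358-5961700 (14343 bp), had 38.8% and 61.4% in young 5 and 6 and 24.8%, 15.7% and 37.7% in old 4, 5 and 6. Old 6 and young 5 were only about a point apart there. Young 4 had no peak in these blocks, so with it included the last one no longer separated the ages.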

How the data were processed

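The deposited data were 16 peak lists, 1 per library. Per the submitters' processing notes CASAVA 1.4, MACS and SICER were used and coordinates are on mm9; read depth, the aligner, cut-offs and the use of a control were not given in the sources used here, and no interval for counting error could be made. The score of each peak is as the authors deposited it, with no unit stated. It starts at 80, and 0 to 1.35% of the autosomal H3K36me3 peaks of a list score 3100 or more, up to 3233.06. The reference annotation at hand is of another build, so genes were not named. The members and lists were chosen with earlier results of these data known.

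From these lists, peaks on the autosomes were joined across 3 kb (also 1 and 5 kb). Common blocks were bases under at least 2 of the 6 libraries, joined likewise and at least 3 kb long. Libraries were compared by exact two-sided permutation tests on the log2 scale for lengths and numbers and as differences for shares; blocks of at least 20 kb were compared as differences, since 1 library had 0 at 1 kb. Blocks were compared with limma 3.58.1 (R 4.3.3) with age as the only term, Benjamini-Hochberg adjustment and a threshold of 0.05, after a test on simulated data. Named blocks were the 10 longest held by the 5 libraries other than young 4, and, among blocks of at least 10 kb, the 5 largest rises and 5 largest falls of score percentile and of fill in which all old libraries lay on one side of young 5 and 6. Alternatives were other gaps, an equal number of peaks, the higher scoring 50% of peaks, other block rules, centring, and leaving out each library. The equal number was 39151 in every list but young 4, which kept its 6348 peaks. Replicate numbers did not pair the libraries, so no pairing entered these fits.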

Additional observations from a re-analysis of the deposited data

How the results depend on the processing

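The covered length, the median peak width, the median block length (each as a log2 ratio) and the share of wide peaks with low score kept their direction under every alternative run. Some of these differences were small. Without young 4 the log2 ratio of covered length was 0.23. At 5 kb without young 4 that of median block length was 0.033, with arithmetic means of 3812.5 bp in the old and 3874.25 bp in the young libraries. The extent and score rank of common blocks had 0 calls throughout, which says nothing of stability: the median log2 ratio of extent was 0.97, −0.01 without young 4 and −0.23 with libraries centred. Most reversals came with leaving out young 4, the short list. Values below are old minus young, as log2 ratios for lengths and numbers and as differences otherwise, and the cause of each change was not tested unless stated. When 1 library was left out at a time, the difference ran from −0.68 to 1.18 for the number of peaks, −0.21 to 0.88 for blocks, −0.11 to 1.84 for the length-weighted median, −0.47 to 0.32 for peaks per block, −5.15 to 15.1 points for fill, −352 to 703 for blocks of at least 20 kb, and −10.3 to 22.4 points for the covered length in blocks of several peaks. It ran from −0.14 to 3.62 points for the 20% of the block nearest to H3K4me3, −0.10 to 0.94 for the farthest 20%, −0.19 to 0.038 for the share under H3K27me3, −0.14 to 0.010 for the share under H3K4me3, −1.77 to 2.72 for the share within 5 kb of H3K4me3 and −14.3 to 1.43 for the share over 50 kb from it. The calls of fill ran from 0 to 3149 (the highest without young 6), the blocks held at 24 months only from 14 to 378 (without young 6; 28 without young 5) and those held at 4 months only from 0 to 6 (without young 4).

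With gaps of 1 kb peaks per block gave −0.019, blocks of at least 20 kb −16, and 4 blocks were held at 24 months only. With the higher scoring 50% of peaks, peaks per block gave −0.060. Along blocks of at least 20 kb the farthest 20% gave −0.36 points. Blocks held at 24 months only numbered 30 of 11996 when 10% of a block had to be covered. They numbered 76 of 10272 at an equal number of peaks, where young 4 kept its short list.

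The following alternatives were run without young 4 and chosen after the data were seen. At 1 kb blocks gave −0.38, peaks per block −0.30, long blocks −121, the covered length in blocks of several peaks −14.8 and the nearest 20% −0.10. At 5 kb these were −0.15, −0.54, −459, −7.81 and −0.044, with −0.17 for the weighted median and −0.19 for the farthest 20%. With the X chromosome blocks gave −0.23, the weighted median −0.11, peaks per block −0.46, long blocks −353 and the share in blocks of several peaks −10.3. With the higher scoring 50% of peaks the number of peaks gave −0.68, blocks −0.31, the weighted median −0.013, peaks per block −0.38, long blocks −154, the share in blocks of several peaks −15.4, the nearest 20% −0.11, the share under H3K27me3 0.012, within 5 kb of H3K4me3 −2.27 and over 50 kb from it 1.84. At an equal number of peaks, peaks per block gave −0.087, the share in blocks of several peaks −3.26, under H3K27me3 0.031, within 5 kb of H3K4me3 −1.99 and over 50 kb 2.49. Along blocks of at least 5 kb the nearest and farthest 20% gave −0.14 and −0.10, and along those of at least 20 kb −0.16 and −0.41. With H3K27me3 present in all 5 libraries the share under it differed by 0.015, and with at least 3 of all 6 by 0.041. With 10% of a block to be covered, 33 blocks were held at 24 months only and 6 at 4 months only.

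The replicate block, with the replicate number as a term, gave 0 calls for fill, 0 for extent and 0 for score rank, as without it. Replicate numbers did not pair the libraries: same-numbered deviations of fill correlated at 0.264, −0.0512 and 0.121 for replicates 4, 5 and 6. The pairs that share a title number had the highest correlations, at 0.264 for young 4 with old 4 and 0.174 for young 5 with old 6. With young 4 left out, the pair of young 5 and old 6 correlated at 0.013, and young 6 with old 6 at −0.013. Deviations of young 5 and young 6 are then mirror images, so these values cannot test a pairing. With the title number as a block only young 4, young 5, old 4 and old 6 enter, with 1 residual degree of freedom, and 7925 of 11755 blocks passed in fill, 7924 of them higher at 24 months; young 6, the library of highest fill, is left out of it. For the named blocks, 276 of 312 alternative values kept their sign. A block picked for a rise or fall keeps the sign of that measure when any of the 5 libraries is left out. The count therefore does not measure stability. Read depth is unknown, so list length, covered length and fill cannot be separated from depth and enrichment, and 3 libraries against 3 cannot reach an exact p under 0.1.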

Other observations

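Sex chromosomes were left out of the comparisons above. The X chromosome held 0.872%, 0.491% and 0.973% of the covered length in young 4, 5 and 6 and 0.358%, 0.392% and 0.539% in old 4, 5 and 6, values that overlap between the ages. The Y chromosome held 0, 22 and 52 peaks in young 4, 5 and 6 and 9, 12 and 18 in old 4, 5 and 6.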
